A study of Homo sapiens with 14 samples.

Results

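The genes described here are 7 matrix metalloproteinases (MMP1, MMP2, MMP3, MMP10, MMP11, MMP14 and MMP16) and 3 tissue inhibitors of metalloproteinases (TIMP1, TIMP2 and TIMP3). They were chosen by name, with earlier results of these data known, and make up 10 of the 24638 genes listed in all 3 kinds of deposited tables. All 10 were found in every table.

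Poly(A)-selected RNA was sequenced from IMR90, primary human fetal lung fibroblasts, in 7 groups. The IMR90 isolates I79 and I10 were each taken young (proliferating) and old (brought to replicative senescence by passaging). I79 was also taken after treatment with inflachromene (ICM), a compound known to bind HMGB1 and HMGB2, which are proteins of the chromatin. The remaining groups were wild type cells (WT) and cells with an siRNA knockdown of HMGB2 (HMGB2 KD). The labels do not name the isolate used for WT and HMGB2 KD, nor say whether WT received a control siRNA. Each of the 4 old and young groups came as 1 table, with between 14991385 and 20632959 estimated counts, and the labels assign both replicates of a group to that table, so it carries no SD and no n. WT and HMGB2 KD had 2 libraries each, with between 33561766 and 41168932 counts, and ICM had 2, with 13290131 and 10971132 reads. Nothing in the labels says that replicates were separate cultures, so that p-values measure only the spread between these libraries. All 10 fibroblast markers examined reached 1 CPM (counts scaled to library size) in every table, with a summed level between 12310 and 33923 CPM. The summed level of 8 epithelial markers did not pass 2.92 CPM, and that of 8 leukocyte markers did not pass 1.81 CPM. That of the endothelial markers (7, of which PECAM1 is not listed in the old and young tables) stood between 52.7 and 225 CPM, with CDH5 at 0 in every table.

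MMPs are zinc-dependent proteases that cut collagens and other proteins of the extracellular matrix. They are made as inactive proenzymes, are switched on by removal of a propeptide, and are held in check by TIMPs, which bind the active site. MMP1 is an interstitial collagenase, MMP3 and MMP10 are stromelysins that cleave many matrix proteins and can activate other proenzymes, and MMP2 is a gelatinase. MMP11 is a stromelysin activated by furin inside the cell. MMP14 and MMP16 sit in the plasma membrane, where MMP14 together with TIMP2 activates pro-MMP2. TIMP1 is a soluble inhibitor that acts poorly on membrane-type MMPs, TIMP2 is soluble as well, and TIMP3 is bound to the matrix. MMP1 and MMP3 are known as part of what senescent fibroblasts secrete.

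On GRCh37, the build of the labels, MMP10 (chr11:102641233-102651359), MMP1 (chr11:102660132-102668891) and MMP3 (chr11:102706532-102714340) lie side by side on the minus strand of chromosome 11. All 3 are overlapped on the other strand by the transcribed pseudogene WTAPP1. TIMP1 (chrX:47441807-47446188) and TIMP3 (chr22:33197691-33259028) lie on the plus strand and are overlapped on the other strand by SYN1 and SYN3. MMP14 (chr14:23305769-23318250) and MMP11 (chr22:24110413-24126503) are also on the plus strand and overlap no annotated gene. MMP2 (chr16:55423612-55540603, plus strand) and TIMP2 (chr17:76849059-76921469, minus strand) overlap noncoding genes, and TIMP2 overlaps CEP295NL on its own strand. Whether counting used strand is not given in the sources used here, so reads of a member and of a gene on its other strand cannot be told apart.

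RefSeq (GRCh38.p14) promoter sequences were at hand for 5 of the 10 members. The 150 bases before the start are shown for the 4 of them on which the results below turn most, each 5′ to 3′ on the strand of its gene. MMP10 is at chr11:102780629-102780778 (minus strand), MMP14 at chr14:22836435-22836584 (plus strand), TIMP1 at chrX:47582286-47582435 (plus strand) and TIMP3 at chr22:32801555-32801704 (plus strand). Capitals mark matches, on either strand, to 4 motifs: AP-1 (TGANTCA), the TATA box (TATAAA), SP1 (GGGCGG) and ETS (AGGAAG).
MMP10: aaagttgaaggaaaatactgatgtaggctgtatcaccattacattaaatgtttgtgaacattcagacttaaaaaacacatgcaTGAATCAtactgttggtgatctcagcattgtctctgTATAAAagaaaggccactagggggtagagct
MMP14: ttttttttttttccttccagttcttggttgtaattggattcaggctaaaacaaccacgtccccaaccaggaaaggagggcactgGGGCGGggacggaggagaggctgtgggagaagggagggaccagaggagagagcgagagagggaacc
TIMP1: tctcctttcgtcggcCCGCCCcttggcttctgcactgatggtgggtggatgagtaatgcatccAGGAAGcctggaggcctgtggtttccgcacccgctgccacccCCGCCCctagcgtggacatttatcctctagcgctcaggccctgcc
TIMP3: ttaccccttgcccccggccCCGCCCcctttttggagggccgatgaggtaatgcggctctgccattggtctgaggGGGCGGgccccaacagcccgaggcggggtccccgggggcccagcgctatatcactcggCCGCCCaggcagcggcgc
Within 250 bases before the start, MMP10 held 1 AP-1 match (-67 to -61) and 1 TATA box (-31 to -26), and none of the other motifs. MMP14 held 1 SP1 match, TIMP1 held 2 SP1 matches and 1 ETS match, and TIMP3 held 5 SP1 matches, of which the sequence above shows 3. No match overlapped another. Among 35116 RefSeq promoters, the AP-1 letters were found in 6.57%, the TATA box in 10.7%, the SP1 letters in 42.6% and the ETS letters in 28.7%. A match is a description of these letters and does not show that a factor binds there. The GC content of the printed windows was 36.7% for MMP10, 54% for MMP14, 63.3% for TIMP1 and 72.7% for TIMP3, next to a median of 60% over all promoters.

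TIMP1 had the highest level per length of the 10 genes in every table and library. In young cells it was followed by MMP2, TIMP2, TIMP3 and MMP14, between 192 and 569 TPM, whereas MMP1 reached 23.9 TPM in I79 young and 32.9 TPM in I10 young, and MMP3 stayed at 0.57 and 0.71 TPM. The order differed in the WT libraries. There, MMP1 had rank 2 in WT replicate 1 and rank 4 in replicate 2, at 1352 and 787 length-scaled CPM (counts per kb of exon, scaled to the same total in every library, as TPM is). In both ICM libraries MMP3 had rank 3. These orders hold within a kind of table only, since each kind was counted in another way.

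**Figure D1:**
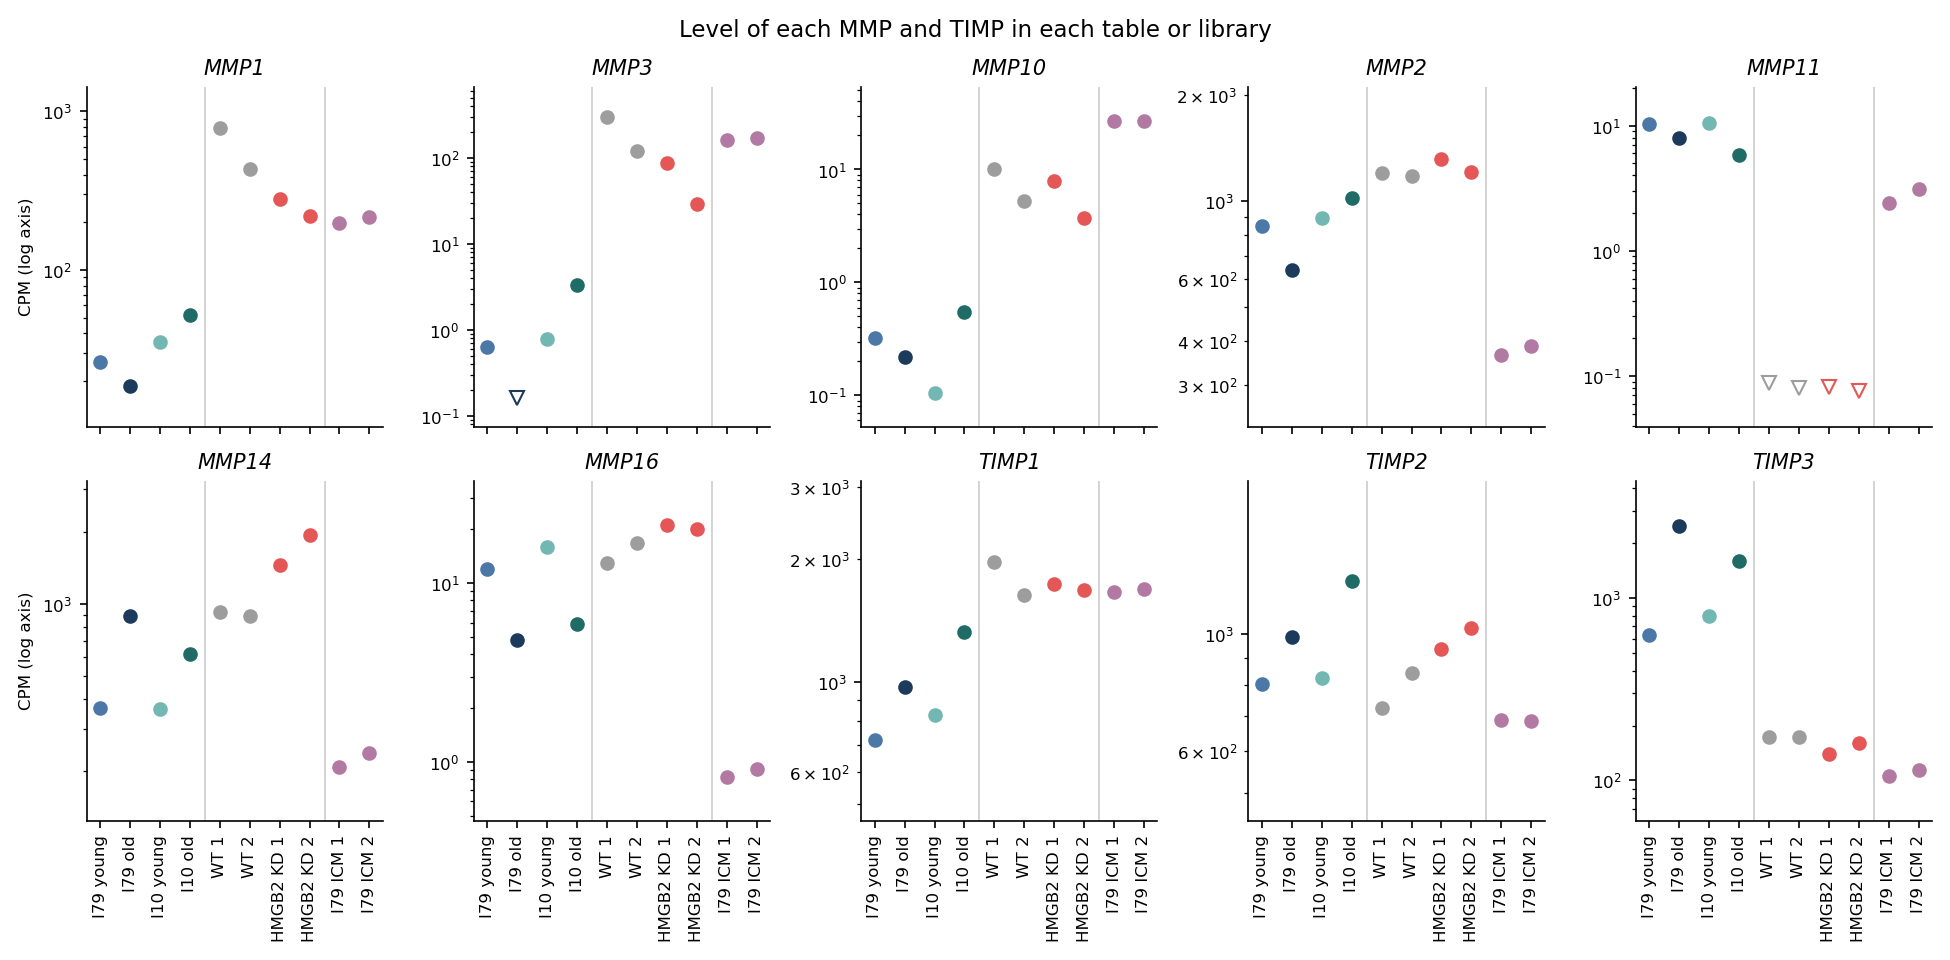
Level of each of the 10 genes in CPM on a log axis, 1 point for each table or library, with vertical lines between the 3 kinds of tables, which were counted in different ways. CPM is TMM-scaled in the old, young, WT and HMGB2 KD columns and per total reads in the ICM columns. Open triangles stand at the level that a count of 0 allows (3 counts). The 3 genes of the chromosome 11 cluster (MMP1, MMP3 and MMP10) stand higher in the WT, HMGB2 KD and ICM libraries than in all 4 old and young tables, and TIMP3 stands highest in the old tables.

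The HMGB2 KD libraries address which transcripts change when HMGB2 is depleted. HMGB2 itself averaged 27.2 ± 0.15 CPM (SD, n = 2) over the WT libraries and 3.43 ± 0.29 CPM (SD, n = 2) over the knockdown libraries (log2 fold change -2.99). Of the 9 members tested, MMP1 and MMP3 fell, MMP14 rose, and 6 did not pass the thresholds (adjusted p under 0.01 by edgeR's quasi-likelihood test, and a log2 fold change over 0.6 in size). With 3 of 9 members called, the share for all 15338 genes tested was 5.2% (2.86% higher and 2.34% lower). The median log2 fold change over the 6 MMPs tested was -0.16 and over the 3 TIMPs -0.08, beside 0.0018 over all genes.

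MMP1, the collagenase, had 782 and 431 CPM in WT replicates 1 and 2, and 282 and 218 CPM in the knockdown replicates. The groups did not overlap, although WT replicate 1 was far above replicate 2. The WT libraries averaged 607 ± 248 CPM and the knockdown libraries 250 ± 45.3 CPM (SD, n = 2 each), and MMP1 fell 2.42-fold (log2 fold change -1.28, SE 0.23, adjusted p = 0.0024). The stromelysin MMP3 had 303 and 122 CPM in WT, and 86.5 and 29.4 CPM after knockdown. Here too the groups did not overlap, and within each group replicate 1 was the higher library. MMP3 fell 3.67-fold (log2 fold change -1.88, SE 0.41, adjusted p = 0.0092). MMP10, the other stromelysin and the neighbour of MMP1 on chromosome 11, had 10.2 and 5.28 CPM in WT, and 7.89 and 3.74 CPM after knockdown. The groups overlapped, and the log2 fold change of -0.41 (SE 0.33, adjusted p = 0.51) did not pass.

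MMP14, the membrane-type protease that activates pro-MMP2, went the other way. It had 921 and 893 CPM in WT, and 1452 and 1936 CPM after knockdown, with no overlap and with the spread larger in the knockdown (907 ± 19.9 and 1694 ± 342 CPM, SD, n = 2 each). MMP14 rose 1.87-fold (log2 fold change 0.90, SE 0.16, adjusted p = 0.0027). MMP16, also of the membrane type and located at chr8:89044239-89340254 on the minus strand, had 12.9 and 16.8 CPM in WT, and 21.1 and 20.0 CPM after knockdown. Its libraries did not overlap, but its log2 fold change of 0.46 (SE 0.16, adjusted p = 0.081) did not pass. The gelatinase MMP2 stood between 1174 and 1312 CPM in all 4 libraries (log2 fold change 0.09, SE 0.14). MMP11 was listed at 0 in all 4 libraries, which allows between 0.0752 and 0.0876 CPM, and was not tested. It was detected in the other tables, and the cause of the difference was not tested.

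None of the 3 inhibitors was called by edgeR or DESeq2, and 1 of them, TIMP2, had an unadjusted p under 0.05. TIMP1 had 1966 and 1631 CPM in WT, and 1736 and 1677 CPM after knockdown, and both knockdown libraries lay between the WT libraries. TIMP2 had 723 and 843 CPM in WT, and 936 and 1024 CPM after knockdown. Its groups did not overlap, and its log2 fold change was 0.32 (SE 0.15, adjusted p = 0.20). TIMP3 had 172 and 173 CPM in WT, and 140 and 161 CPM after knockdown. Its libraries did not overlap, and the log2 fold change was -0.19 (SE 0.13, adjusted p = 0.42). In all, 7 of the 9 members tested had groups that did not overlap, beside 53.8% of all genes.

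Without knockdown replicate 2 none of the 3 genes was called, at adjusted p-values of 0.049 for MMP1, 0.082 for MMP3 and 0.030 for MMP14 (edgeR), while the log2 fold changes kept their direction (-1.10, -1.29 and 0.68). The size of the MMP3 change depended on single libraries, with a log2 fold change of -1.08 without WT replicate 1, -2.39 without WT replicate 2 and -2.86 without knockdown replicate 1. DESeq2 called MMP14 and did not call MMP1 (adjusted p = 0.038) or MMP3 (adjusted p = 0.19), with log2 fold changes of -1.28 and -1.88 as in edgeR.

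The old and young tables address which transcripts change as the cells reach replicative senescence. With the isolates as replicates, MMP16 fell and was the only member called among the 9 tested, beside 9.34% of all 15135 genes tested (5.65% higher and 3.69% lower). In I79 it had 12.03 CPM young and 4.83 CPM old, and in I10 16.0 CPM young and 5.91 CPM old. Both old tables were below both young tables. The log2 fold change was -1.38 (SE 0.17, adjusted p = 0.0085 by edgeR), on between 89 and 307 estimated counts a table. This call was lost without isolate in the model (log2 fold change -1.39, adjusted p = 0.011) and with counts rebuilt from TPM (-1.41, adjusted p = 0.027).

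The matrix-bound inhibitor TIMP3 had 626 CPM young and 2497 CPM old in I79, against 799 CPM young and 1599 CPM old in I10. Both old tables were above both young tables, and the isolates differed most when old. The log2 fold change was 1.50 (SE 0.28) with an adjusted p of 0.021 by edgeR, which misses the threshold. MMP14 had 367 CPM young and 890 CPM old in I79, against 364 CPM young and 619 CPM old in I10. The young tables were nearly level and both old tables were above them, with a log2 fold change of 1.02 (SE 0.17) and an adjusted p of 0.016 by edgeR. DESeq2 called both genes (adjusted p of 8.3e-11 for TIMP3 and 2.1e-07 for MMP14), as did edgeR at an adjusted p under 0.05 or with no filter on low counts. Only 1 residual degree of freedom was left in the fit, and on simulated data the share of false calls was above the nominal one.

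TIMP1 had 720 CPM young and 972 CPM old in I79, and 827 CPM young and 1321 CPM old in I10. TIMP2 stood at 802 and 986 CPM in I79 and at 826 and 1260 CPM in I10, young before old. Both inhibitors were higher in both old tables than in both young tables, by log2 fold changes of 0.55 (SE 0.15, adjusted p = 0.048) and 0.45 (SE 0.16, adjusted p = 0.086), and neither passed the thresholds. MMP11 stood at 10.4 and 7.92 CPM in I79 and at 10.5 and 5.86 CPM in I10, young before old. Its old tables were the lower ones (log2 fold change -0.61, SE 0.20, adjusted p = 0.080). In all, 6 of the 9 members tested had old and young tables that did not overlap, beside 73.9% of all genes. The median log2 fold change was 0.55 over the 3 TIMPs and -0.04 over the 6 MMPs tested, beside -0.0090 over all genes. The summed level of 6 endothelial markers was higher in the old tables, with 97.0 CPM young and 225 CPM old in I79, and 68.5 CPM young and 168 CPM old in I10. TEK, which made up most of it, was called higher (log2 fold change 1.24), CDH5 was at 0 in every table, and the part of these markers in the values above was not tested. In bulk RNA, fewer cells of a type and less RNA per cell cannot be told apart.

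The collagenase and the gelatinase had opposite directions in the isolates. MMP1 stood at 26.3 CPM in I79 young and 18.6 in I79 old, a log2 ratio of -0.50 (95% counting interval -0.71 to -0.29). In I10 it stood at 35.5 CPM young and 51.8 old, a log2 ratio of 0.55 (0.40 to 0.69). MMP2 stood at 849 and 636 CPM in I79 (log2 ratio -0.41, interval -0.45 to -0.38) and at 896 and 1020 CPM in I10 (0.19, interval 0.16 to 0.22). The fit over both isolates gave log2 fold changes of 0.04 (SE 0.27) for MMP1 and -0.11 (SE 0.19) for MMP2, neither near the thresholds. For both genes the intervals of the isolates lie on either side of 0, but they cover counting error only, and with 1 table a group the difference between the isolates could not be tested. Of all genes tested, 19.1% had opposite directions in the isolates, whatever their counting error.

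The stromelysins were near the floor in these tables. MMP3 had 10 estimated counts in I79 young and 0 in I79 old, which puts the old table at least 3.93-fold lower when a count of 0 is set to 3 counts in that table and the young count is taken as exact. With counting error in both tables, the 95% interval of the log2 ratio reaches up to -1.40. In I10 it had 15 estimated counts young and 60 old, a log2 ratio of 2.08 (interval 1.25 to 3.01). I10 old was thus the table with the most MMP3, at 3.32 CPM, and also the one with the most MMP1. MMP10 had 5 and 4 estimated counts in I79 and 2 and 10 in I10, young before old, and did not pass the filter on low counts. Its log2 ratio in I10 was 2.41 with an interval from 0.18 to 5.64.

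**Figure D2:**
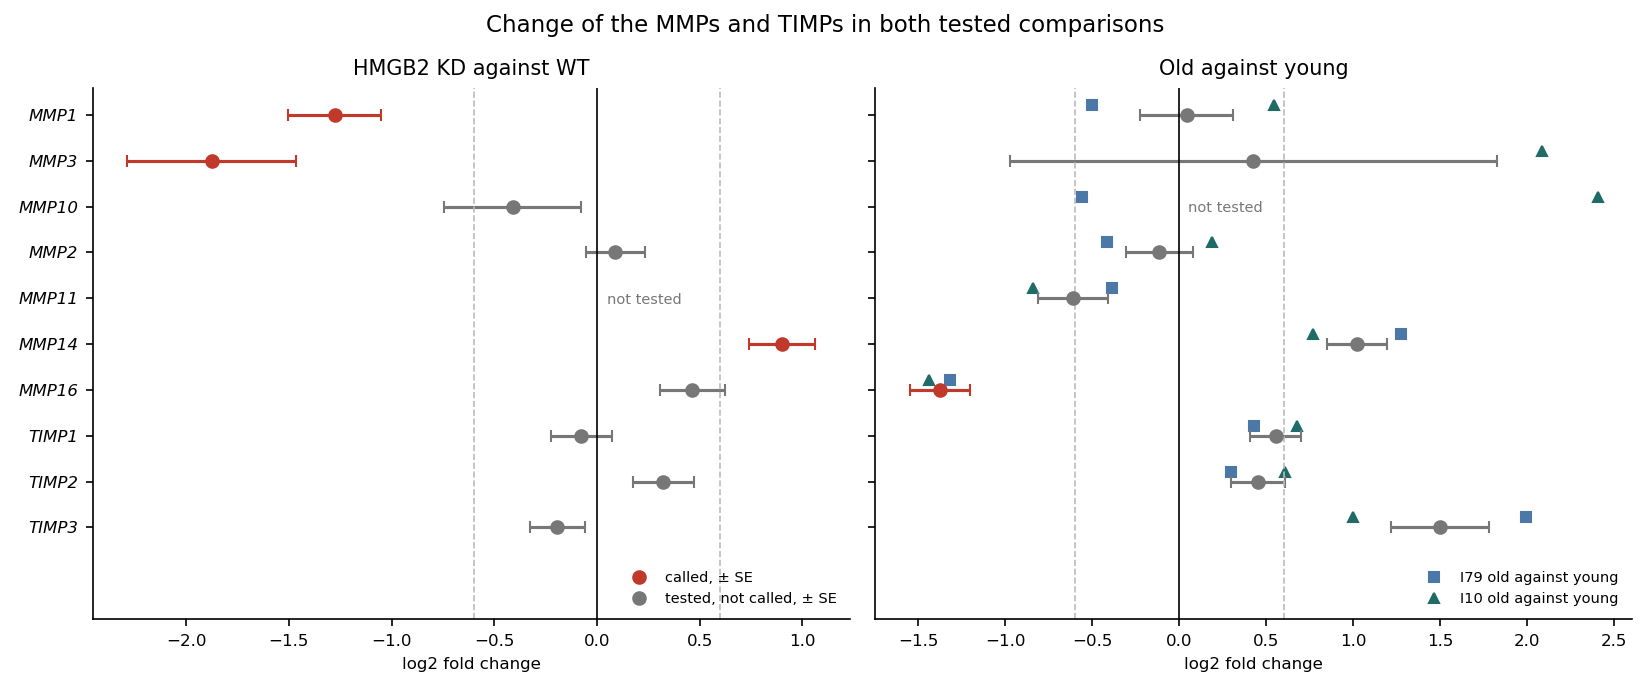
Log2 fold changes of the 10 genes in HMGB2 KD against WT (left) and old against young (right). Circles with bars are edgeR estimates ± SE, red where called, squares and triangles are the log2 ratios within I79 and I10, and dashed lines mark 0.6. MMP1, MMP3 and MMP14 are called on the left and MMP16 on the right. The isolates lie on either side of 0 for MMP1, MMP2 and MMP10, and MMP3 has no I79 ratio because I79 old is at 0.

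TIMP3 and MMP14 had the same direction in both isolates and different sizes. The old to young log2 ratio of TIMP3 was 2.00 in I79 (interval 1.96 to 2.03) and 1.00 in I10 (0.97 to 1.03), and that of MMP14 was 1.28 (1.23 to 1.32) and 0.77 (0.72 to 0.81). TIMP1 and TIMP2 had the larger ratio in I10, at 0.68 and 0.61, beside 0.43 and 0.30 in I79. MMP16 was alike in both, at -1.32 in I79 (interval -1.70 to -0.95) and -1.44 in I10 (-1.77 to -1.11), intervals that overlap widely. Past a log2 ratio of 0.6 upward lay 19.9% of all genes in I79 and 17% in I10, and downward 18.1% and 16.9%.

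ICM and I79 young were compared by CPM over the shared genes, and no test was run, since the ICM reads were short and had been assigned by transcript region. Treatment and counting therefore cannot be told apart. WT, which carries no label of ICM and was counted in yet another way, is given beside each value. By the same steps HMGB2 stood at 29.4 and 29.6 CPM in WT, against 139 CPM in I79 young and 38.8 CPM in I79 old. Its log2 ratio against I79 young was -2.23 in WT and -4.73 in ICM. Whether the WT cells were in the same state as the young cells was not tested, so WT is not a stand-in for I79 young. MMP3 stood at 169 and 176 CPM in the ICM libraries against 0.73 CPM in I79 young, a log2 ratio of 7.72, and WT gave 8.0 by the same steps. MMP10 stood at 27.5 and 27.7 CPM in ICM against 0.36 CPM in I79 young, a log2 ratio of 5.94, and WT gave 4.15. MMP1 stood at 204 and 222 CPM against 30.0 CPM, a log2 ratio of 2.82, and WT gave 4.39. All 3 genes of the cluster were thus far above I79 young both in the treated cells and in WT cells. Against WT, the ICM log2 ratio was -1.57 for MMP1, -0.27 for MMP3 and 1.79 for MMP10. The totals of MMP3 and MMP10 were not whole (2170.5 and 354.5 in the first ICM library), and whether these closely related genes share reads was not tested.

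The membrane-type proteases and the gelatinase stood below I79 young after ICM, whereas WT stood above it. MMP16 had 11 and 10 reads in the ICM libraries, 0.85 and 0.94 CPM, against 13.7 CPM in I79 young. Its log2 ratio was -3.81, while WT gave 0.22. MMP2 stood at 377.4 and 401 CPM against 967 CPM (log2 ratio -1.31, WT 0.41), and MMP14 at 216 and 245 CPM against 419 CPM (log2 ratio -0.86, WT 1.23). For these 3 genes the ICM and WT ratios had opposite signs. MMP11 stood at 2.49 and 3.20 CPM in ICM against 11.8 CPM in I79 young (log2 ratio -2.03), and WT was at 0.

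TIMP1 stood at 1715 and 1744 CPM in ICM against 821 CPM in I79 young, a log2 ratio of 1.07, and WT gave 1.24. TIMP3 stood at 109 and 117 CPM against 713 CPM, a log2 ratio of -2.66, and WT gave -1.93. TIMP2 stood at 710 and 707 CPM against 915 CPM, a log2 ratio of -0.37, and WT gave -0.11. TIMP1 and TIMP3 thus stood in the same direction from I79 young in ICM and in WT, and TIMP2 stayed within 0.6 of I79 young in both. Past 0.6, 4 members lay above and 5 below I79 young in ICM, beside 31.1% and 29.8% of all 15015 genes (61% in either direction). In WT 5 lay above and 2 below, beside 21.6% and 23.3% (44.9% in either direction). Those 2 were TIMP3 and MMP11, and MMP11 counts as below only through its 0 in WT, the cause of which was not tested. TIMP2 also passed -0.6 when the UTR reads were left out of the ICM libraries (log2 ratio -1.73), and TIMP3 then gave -4.28. The I79 young counts stayed whole in this step. Most ICM reads of TIMP2 and TIMP3 fell on the 3′ UTR, as given below, so both ratios had to fall whatever the treatment did.

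**Figure D3:**
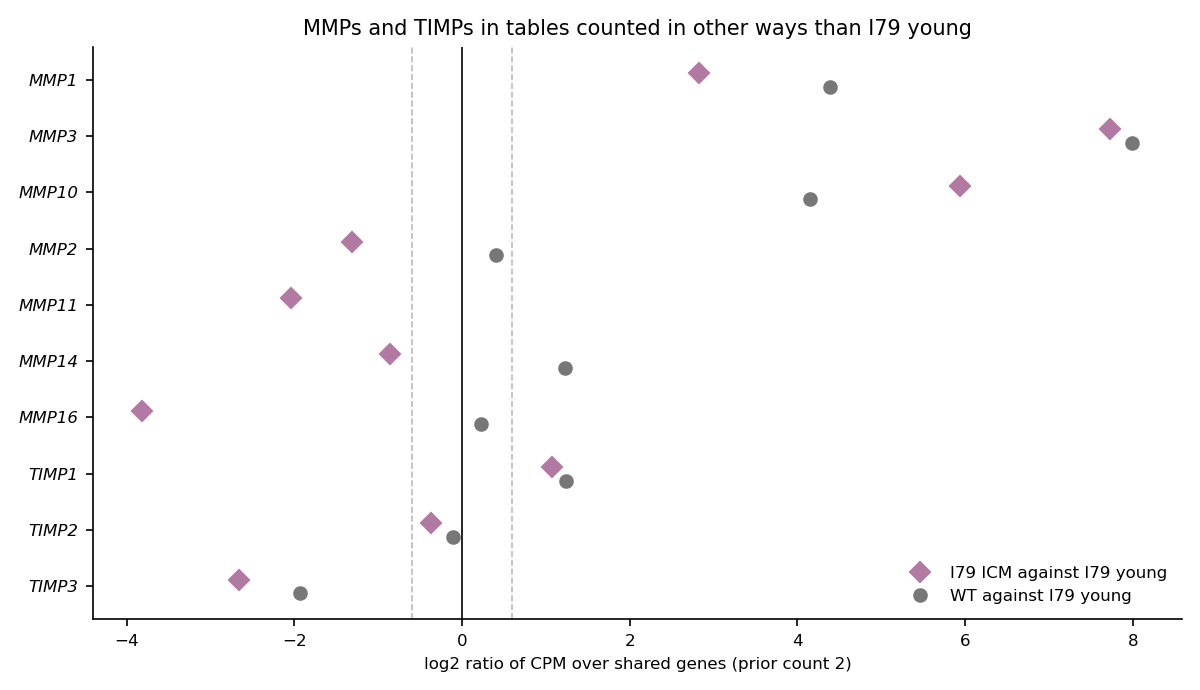
Log2 ratio of CPM over shared genes (prior count 2) for ICM against I79 young (diamonds) and for WT against I79 young (circles), with dashed lines at 0.6 in both directions. MMP1, MMP3, MMP10 and TIMP1 are above 0.6 in both, TIMP3 is below -0.6 in both, and MMP2, MMP14 and MMP16 are below -0.6 in ICM only. No circle is drawn for MMP11, which was at 0 in WT.

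The transcript regions of the ICM reads differed among the inhibitors. Of the TIMP3 reads, 20.6% and 21.3% fell on the coding region in the ICM libraries and 71.8% and 72.3% on the 3′ UTR. TIMP2 was similar, with 24.7% and 25.5% on the coding region and 73.3% and 73.3% on the 3′ UTR. TIMP1 had 72.2% and 73.3% on the coding region and 0.07% and 0.05% on the 3′ UTR. Over all genes, 61.1% and 61.9% of reads fell on coding regions. Of the MMPs, MMP10 had the highest coding shares, at 90.7% and 94.9%.

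In the old and young tables, MMP1 and TIMP3 each had 1 annotated transcript. TIMP1 was carried almost entirely by TIMP1-201 (between 96.9% and 99.0% of its estimated counts) and MMP14 mostly by MMP14-201 (88.5% to 92.2%). TIMP2 was shared between TIMP2-203 (70.7% to 72.3%) and TIMP2-201 (25.6% to 28.4%), in nearly the same proportion in all 4 tables. MMP2 was shared among MMP2-201 (44.8% to 51.3%), MMP2-203 (24.3% to 25.8%) and MMP2-208 (21.4% to 28.6%). The MMP2-201 share was higher in both I10 tables than in both I79 tables, at 50.2% and 51.3% against 44.8% and 46.7%. These shares were not tested.

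Summed per length, the 7 MMPs stood below the 3 TIMPs in every table. In I79 the MMP sum was 748 TPM young and 794 TPM old, and the TIMP sum was 2286 TPM young and 3285 TPM old. In I10 the MMP sum was 814 TPM young and 894 TPM old, and the TIMP sum was 2664 TPM young and 3661 TPM old. The MMP to TIMP ratio was thus lower in the old table of both isolates, at 0.242 against 0.327 in I79 and at 0.244 against 0.306 in I10. The make-up of the MMP sum differed as well. MMP2 made up 69.7% and 69.9% of it in I79 young and I10 young and 63.4% in I10 old, while MMP14 led in I79 old with 52.8%.

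In WT the MMP to TIMP ratio was 0.601 and 0.515, and in HMGB2 KD it was 0.542 and 0.570, inside the range of the WT libraries. Without the highest member on each side the order differed, with 4.05 and 2.43 in WT, and 2.40 and 1.78 in HMGB2 KD. The MMP left out was then MMP1 in WT replicate 1, MMP2 in WT replicate 2 and MMP14 in both knockdown libraries, and the TIMP was TIMP1. The sums hid a shift among the proteases. In length-scaled CPM, MMP1 had 1352 and 787 in WT, and 507 and 381 after knockdown. MMP3 had 772 and 329 in WT, and 230 and 75.9 after knockdown. On the same scale MMP14 had 943 and 966 in WT, and 1546 and 2004 after knockdown, where it was the leading MMP with 41.9% and 54.0% of the sum. In the ICM libraries the ratio was 0.233 and 0.246, MMP3 led the MMPs with 29.5% and 28.7%, and TIMP1 made up 89.6% of the TIMP sum in both. These ratios depend on TIMP1, and no test was run on them.

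**Figure D4:**
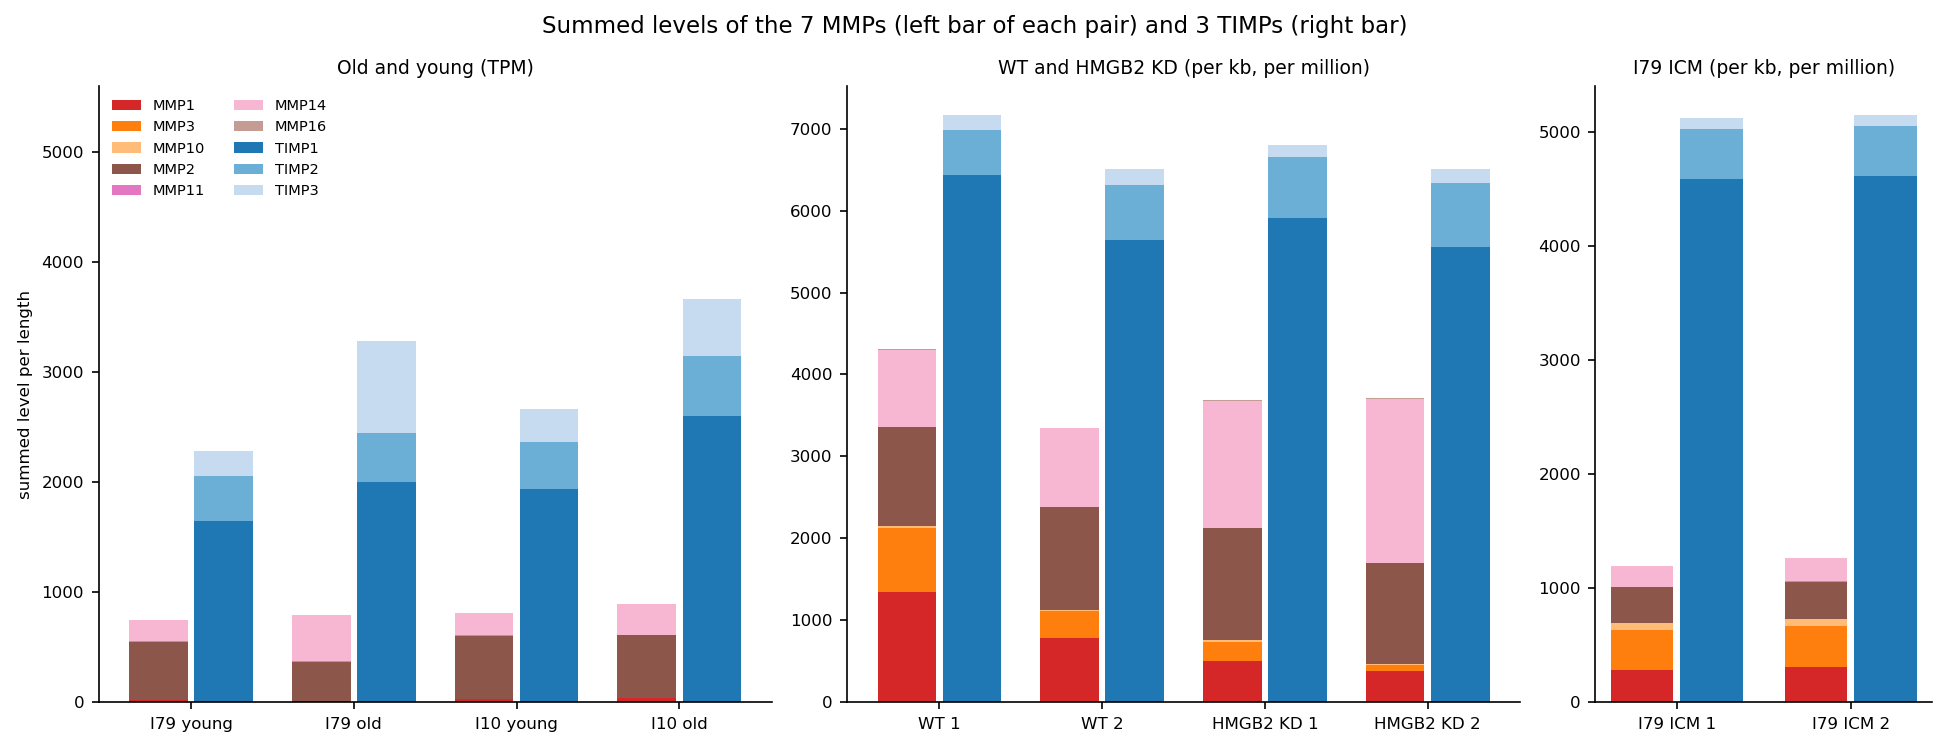
Summed level per length of the 7 MMPs (left bar of each pair) and the 3 TIMPs (right bar), stacked by gene, for the old and young tables in TPM and for the other libraries in length-scaled CPM. The panels have separate axes that start at 0, and levels are compared only within a panel. TIMP1 is the largest part of every TIMP bar, and the MMP1 and MMP3 parts are smaller and the MMP14 part larger in both HMGB2 KD libraries than in both WT libraries.

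Other genes of the pathway were taken from lists by role. Beside the counts below, 2.86% of all genes were called higher and 2.34% lower in HMGB2 KD. In old cells these shares were 5.65% and 3.69%. The median log2 fold change over all genes was 0.0018 in HMGB2 KD and -0.0090 in old cells. Of 16 other MMPs, 7 were tested in HMGB2 KD against WT and 2 rose, MMP15 (log2 fold change 0.71) and MMP19 (0.73), with a median of 0.65. In old against young 5 were tested, with 1 at an unadjusted p under 0.05 and 0 called by edgeR or DESeq2. Of those that reached 1 CPM, MMP19 stood between 21.9 and 43.7 CPM in all 8 columns and MMP15 between 12.3 and 23.1 CPM in the WT and HMGB2 KD libraries but not above 1.92 CPM in the old and young tables. MMP17 reached 9.08 CPM, MMP23B 8.08 CPM and MMP24 2.71 CPM at most. MMP9, the other gelatinase, did not pass 0.0292 CPM in any of these columns.

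Of 4 other inhibitors, all tested in both comparisons, 1 fell in HMGB2 KD and 3 rose in old cells. TFPI2, a serine protease inhibitor of the matrix, had 3556 and 2052 CPM in WT, and 1052 and 482 CPM after knockdown (log2 fold change -1.87). This fall was not called by DESeq2. TFPI2 rose in old cells (1.08). RECK, a membrane-anchored inhibitor of MMPs, stood at 85.9 and 342 CPM in I79 and at 84.5 and 350 CPM in I10, young before old (log2 fold change 2.02). A2M, the protease-trapping alpha-2-macroglobulin, rose in old cells by 5.25 on the log2 scale, with 1.22 CPM young and 42.5 CPM old in I79, and 0.42 CPM young and 18.6 CPM old in I10. The median of the list was -0.35 in HMGB2 KD and 1.55 in old cells.

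Of 12 genes of proenzyme activation, 9 were tested in each comparison. In HMGB2 KD the proprotein convertase FURIN rose (0.70), and PLAT, the tissue plasminogen activator, and the cathepsin CTSK fell (-0.80 and -0.85). In old cells PLAT and the urokinase receptor PLAUR rose (2.24 and 1.15). DESeq2 also called CTSK and CTSB higher in old cells. PLAT thus fell in one comparison and rose in the other. Of 30 ADAM and ADAMTS proteases, 2 rose and 3 fell among 25 tested in HMGB2 KD (ADAM19 1.94, ADAMTS2 1.43, ADAMTS5 -1.93, ADAMTS9 -1.13 and, named after its value was seen, ADAMTS1 -1.06). In old cells 2 rose and 1 fell among 24 tested (ADAM10 1.18, ADAM15 0.77, ADAMTS3 -3.02), beside 3 higher and 2 lower by DESeq2.

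Of 15 AP-1 and ETS factors, the families whose motifs were searched above, 3 rose in HMGB2 KD (ELK3 0.69, ATF3 0.68, ETS1 0.64) and 4 in old cells (ATF3 2.24, ETS2 1.23, FOSL1 1.18, ETS1 0.71). DESeq2 also called ETS2 and FOS lower in HMGB2 KD. Of 20 matrix proteins that MMPs cleave, 19 were tested. In HMGB2 KD 7 rose, led by ELN, the elastin gene (1.62), and the collagen V genes COL5A3 (1.40) and COL5A1 (1.20), the last of which DESeq2 did not call. The 2 that fell were COL3A1 (-1.18) and, named after its value was seen, COL7A1 (-0.83), with a median of 0.54 over the list. In old cells COL7A1 rose (1.14), VCAN and ELN fell (-2.58 and -1.81), and the median was 0.01. DESeq2 called 3 genes of this list higher and 5 lower in old cells.

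For MMP1, MMP3 and TIMP3 the genes with the most alike pattern were sought among 12773 genes. The measure was the root mean square (RMS) difference of log2 CPM over the 8 old, young, WT and HMGB2 KD columns, each centred within its kind of table. A small constant was added to CPM before taking logs, which shrinks the changes of genes at low levels. Nearest to MMP1 were FST (RMS difference 0.24), MPP4 (0.26) and TNFRSF11B (0.28), beside an RMS of 0.62 for MMP1 itself. Nearest to MMP3 were TNFRSF11B (0.55), MMP1 (0.55) and AKR1C1 (0.57), beside 1.12 for MMP3 itself. MMP1 was thus second nearest to MMP3 of all genes, while MMP3, with its larger swings, ranked 1089 for MMP1. MMP3 was near the floor in the old and young tables, between 0 and 3.32 CPM. In those columns its likeness to any gene therefore depends on the added constant. Nearest to TIMP3 were GSDMB (0.09), GRAMD1C (0.10) and ETV7 (0.10), beside 0.57 for TIMP3 itself, and the nearest member was MMP14 at rank 2210. ETV7 was near the floor in young cells, at 0.064 CPM young and 1.79 CPM old in I79, and 0.16 and 0.77 CPM in I10. Its likeness to TIMP3 therefore depends on the added constant.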

How the data were processed

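RNA of 14 samples in 7 groups was measured by poly(A) RNA-seq, and groups were taken from sample titles. The authors deposited estimated counts and TPM values per transcript for the old and young groups, as 1 table for both replicates of a group (whether pooled is not stated). For WT and HMGB2 KD they deposited raw counts per gene, and for ICM estimated counts for each gene, split by region of the transcript. The submitters' processing notes name STAR 2.6.0c, featureCounts, DESeq2 and GRCh37, but the WT and HMGB2 KD tables end with summary rows of another counter (16.9% to 18.0% of the totals, left out).

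Estimated counts were summed per gene through GENCODE v44lift37 (97.7% of transcripts matched) and rounded. The quasi-likelihood test of edgeR 4.0.16 in R 4.3.3 was used, after filterByExpr and TMM scaling, with p-values Benjamini-Hochberg adjusted over all genes tested and isolate as a covariate for old against young. Genes were called at an adjusted p under 0.01 and a log2 fold change over 0.6. SE values were derived from this test, as the size of the log2 fold change divided by the square root of its F statistic. The fits were tested on simulated data, where the share of false calls was above the nominal one in both comparisons, more so in old against young. DESeq2 1.42.0 was an alternative. Intervals within isolates are 95% exact Clopper-Pearson intervals and, like limits from counts of 0, cover counting error only. Replicate pairs differed beyond sampling noise (chi-square per degree of freedom 18.0 in WT, 28.0 in HMGB2 KD, 1.78 in ICM).

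All 10 members are named in every comparison. From each other list the called genes with the largest change were named (at most 4 a list and comparison, with exceptions marked in the text), with other MMPs that reach 1 CPM and the 3 genes most like MMP1, MMP3 and TIMP3. The members and lists were chosen with earlier results of these data known.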

Additional observations from a re-analysis of the deposited data

Results flagged for a closer look

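Opposite directions of old against young in the isolates, beyond counting error, drew attention to 3 members, and in no case could the difference between isolates be tested, with 1 table a group. MMP1 had a log2 ratio of -0.50 in I79 and 0.55 in I10. MMP2 had -0.41 in I79 and 0.19 in I10. MMP3 had 0 estimated counts in I79 old, below the 10 of I79 young, and a log2 ratio of 2.08 in I10. Among all genes tested, 19.1% had opposite directions, counted with no condition on counting error. The share that also passes counting error was not computed.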

How the results depend on the processing

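In HMGB2 KD against WT, the count of 3 members called held under DESeq2 size factors, no filter on low counts, 1 RUVs factor and an adjusted p under 0.05. DESeq2's test called 1. With 1 library left out the count ran from 0 (without HMGB2 KD replicate 2) to 3, and calls over all genes ran from 312 to 999. The labels do not say whether equal replicate numbers mark pairs, and the correlation of replicate deviations between WT and HMGB2 KD (0.18) does not settle it. With the replicate block the 3 members were still called, and calls over all genes went from 797 to 1243. With 1 library left out, the log2 fold change of MMP10 ran from -1.05 to 0.14 (above 0 without WT replicate 1 or HMGB2 KD replicate 2) and that of TIMP1 from -0.21 to 0.063 (above 0 without WT replicate 1).

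In old against young, 1 member was called, beside 3 at an adjusted p under 0.05, with no filter or by DESeq2 (3847, 4250 and 2167 calls over all genes against 1414), and 0 without the isolate term or with counts from TPM. MMP3 turned to -0.84 with DESeq2. Each isolate alone (I79, then I10) gave -0.50 and 0.55 for MMP1, and -0.41 and 0.19 for MMP2. For MMP3 I10 gave 2.08, and I79 gives no ratio, with I79 old at 0.

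Counts of members past 0.6 in ICM against I79 young held to within 1 gene. Without the highest member on each side, the MMP to TIMP ratio was 0.358 and 0.292 in I79 young and old, 0.337 and 0.308 in I10, 4.05 and 2.43 in WT, 2.40 and 1.78 in HMGB2 KD, and 1.57 and 1.69 in ICM. Where not given above, the cause was not tested. Depth limits MMP3 and MMP10 in the old and young tables and MMP16 in ICM.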
